A study of Mus musculus with 6 samples.

Results

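Asns and 9 other genes of the amino acid response were followed in primary hepatocytes of FOXA2f/f+CCl4 and FOXA2H-KO+CCl4 mice. The 10 genes, taken by gene symbol from the 34745 genes of each count file, are Atf4, Ddit3, Trib3, Chac1, Sesn2, Psat1, Phgdh, Shmt2, Fgf21 and Asns, and all 10 passed the filter on low counts. They were chosen by results of these same libraries, in which the Asns counts were lower in FOXA2H-KO, and the others because they belong to the same response. Therefore the comparison of FOXA2H-KO with FOXA2f/f is a description of these genes and no test of them is drawn. FOXA2f/f+CCl4 mice carried floxed Foxa2 alleles and were given AAV8-TBG-Control, while FOXA2H-KO+CCl4 mice carried the same alleles and received AAV8-TBG-Cre. The TBG promoter drives Cre in hepatocytes, so other liver cells keep Foxa2. All mice were male and all received a virus and then CCl4, a hepatotoxin that injures hepatocytes and causes fibrosis, and no group without CCl4 was analysed here. CCl4 (0.25 ml/kg, 2 injections a week) was begun 2 weeks after the virus and lasted 4 weeks. The labels give an age of 12 weeks. Each group has 3 libraries, which the labels number 1, 2 and 4. The deposited data number them 1 to 3 and were joined to the labels by their sample records, so replicate 4 is the library deposited as the third of its group.

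ATF4 is a transcription factor whose mRNA is translated more when the initiation factor eIF2α is phosphorylated, as happens when amino acids are short, unfolded proteins collect in the endoplasmic reticulum (ER) or haem is low. It pairs with C/EBP proteins, among them CHOP, on composite DNA elements and switches on genes for amino acid synthesis, transport and tRNA charging. Because ATF4 is controlled largely in translation, the level of its mRNA is not a measure of its activity, and Asns, Trib3 and Chac1 mRNA are commonly read in its place. In the liver, FGF21 is secreted under the same control.

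The C/EBP-ATF composite was searched as the letters TGATGNAA on both strands of the RefSeq promoter windows, which run from 250 bases before to 50 after each gene start on GRCm38.p6. All 10 genes had a window, and the 4 windows that hold the letters are shown because they include those of Asns and Chac1, the genes with the lowest FOXA2H-KO levels relative to FOXA2f/f. Each stretch is printed 5′ to 3′ on the strand of the gene, with the matched letters in capitals.
Asns, chr6:7693215-7693242, minus strand: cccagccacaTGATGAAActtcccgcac
Chac1, chr2:119351039-119351066, plus strand: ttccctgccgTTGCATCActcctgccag
Trib3, chr2:152344029-152344056, minus strand: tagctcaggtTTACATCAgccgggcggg
Fgf21, chr7:45615612-45615639, minus strand: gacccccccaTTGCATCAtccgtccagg
In Asns the match reads along the gene strand and begins 23 bases before the RefSeq start, which lies inside the first exon of the gene in GENCODE M21. In Chac1, Trib3 and Fgf21 the match lies on the opposite strand, so that the complement is printed. It begins 193 bases before the RefSeq start in Chac1 and 139 bases before it in Fgf21. In Trib3 the match begins at base 15 of the RefSeq transcript, which lies upstream of the gene start in GENCODE M21. The letters occur in the windows of 4.51% of 27025 genes. The narrower form TGATGCAA, which is contained in the first, occurs in Chac1 and Fgf21 and in 1.03% of all genes. Among other ATF4 and CHOP targets and amino acid transporters, 9 of the 30 genes with a window hold TGATGNAA. The forkhead letters TGTTTAC and TGTTTGC were found in 0 of the 10 windows, against 4.05% and 5.76% of all genes. A match of letters does not show that a factor binds there, and its lack in 300 bases does not show that none does.

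Foxa2, the deleted gene, had 16.3 ± 2.75 CPM (SD, n = 3) in FOXA2f/f and 1.14 ± 0.438 in FOXA2H-KO libraries, the order that the labels give. CPM is the usual count relative to the library total, after scaling of the totals by the TMM method, so that libraries of unequal depth can be compared. Library totals ranged from 20983455 to 28327765 counts, and the hepatocyte gene Alb took 9.38% to 11.02% of them. Foxa2 was the only gene of 14417 tested that passed an adjusted p under 0.05 (edgeR quasi-likelihood, Benjamini-Hochberg) with a fold change of at least 2, which makes the background share of called genes 0.00694%. The libraries are bulk RNA of cell preparations, so a smaller number of cells that express a gene and less RNA of it per cell cannot be told apart. Markers of other cell types were present in all libraries. The summed level of 10 macrophage markers was 581 to 2609 CPM in FOXA2f/f and 1301 to 1881 in FOXA2H-KO, that of 10 stellate cell and fibroblast markers 1084 to 2781 and 1617 to 2648, and that of 10 endothelial markers 278 to 939 and 457 to 607. In each of these 3 lists FOXA2f/f replicate 4 was the highest and FOXA2f/f replicate 2 the lowest of its group. The sum of 8 cholangiocyte markers was 174 to 368 CPM in FOXA2f/f and 253 to 709 in FOXA2H-KO. All 6 that were tested had log2 fold changes above 0, with a median of 0.82, while 52.2% of all genes tested were below 0. In 2 of the 6 the groups did not overlap, against 4.54% of all genes tested as higher in FOXA2H-KO. Also above 0 were 9 of 10 macrophage markers (median 0.32) and 9 of 10 stellate cell and fibroblast markers (median 0.22). Without FOXA2f/f replicate 2 these were 3 and 5 of 10. Of the other lists, 5 of 10 endothelial, 4 of 5 lymphocyte, 3 of 7 neutrophil and 2 of 12 hepatocyte markers tested were above 0. The sum of 8 neutrophil markers was 9.21 to 75.3 and 21.2 to 31.1 CPM, and that of 8 lymphocyte markers 1.37 to 5.40 and 2.497 to 5.92 CPM. The part of these cells in the results was not tested. No marker of any list was at 0 in all libraries.

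Asns, asparagine synthetase, which makes asparagine from aspartate and glutamine, had the lowest FOXA2H-KO level relative to FOXA2f/f of the 10 genes. The gene lies at chr6:7675169-7693254 on the minus strand. FOXA2f/f replicates 1, 2 and 4 had 16.6, 10.03 and 4.58 CPM, from 386, 183 and 144 counts. FOXA2H-KO replicates 1, 2 and 4 had 2.72, 2.25 and 2.17 CPM, from 74, 56 and 47 counts. The groups did not overlap, and the 3 FOXA2H-KO libraries lay close together while the FOXA2f/f libraries were far apart. The coefficient of variation was 57.8% in FOXA2f/f and 12.5% in FOXA2H-KO. The means were 10.4 ± 6.01 and 2.38 ± 0.298 CPM, a log2 fold change of −2.12 with a standard error (SE) of 0.44. Without FOXA2f/f replicate 1 the log2 fold change was −1.59, and without FOXA2f/f replicate 4 it was −2.48. On the log2(FPKM + 1) scale, which understates changes of low genes, it was −1.03.

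Atf4 (chr15:80255184-80257541, plus strand), the factor itself, differed far less at the level of mRNA. It had 74.1, 68.9 and 49.4 CPM in FOXA2f/f replicates 1, 2 and 4, and 44.3, 50.2 and 54.8 CPM in FOXA2H-KO. FOXA2f/f replicates 1 and 2 were above all FOXA2H-KO libraries, but replicate 4 lay among them, and the log2 fold change was −0.37 (SE 0.18). With scaling by library size alone or in FPKM the groups did not overlap, in FPKM by a margin of 31.8 in the lowest FOXA2f/f against 31.5 in the highest FOXA2H-KO library.

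Ddit3 encodes CHOP, a C/EBP protein induced by ER stress that promotes cell death. It had 7.04, 4.00 and 9.41 CPM in FOXA2f/f and 7.54, 11.5 and 4.58 CPM in FOXA2H-KO. Each group spanned more than 2-fold and the groups overlapped over most of their range. The log2 fold change was 0.20 (SE 0.40), and it ranged from −0.17 without FOXA2H-KO replicate 2 to 0.51 without FOXA2f/f replicate 4, so its sign depends on single libraries. Of the exonic bases of Ddit3 (chr10:127290774-127296288, plus strand), 10.9% lie in other annotated entries. The largest share, 105 bases, is with a second Ddit3 entry on the same strand, which was not used here, and 68 bases are shared with Mars on the opposite strand. The library kit does not mark strand, so reads on those 68 bases cannot be assigned to one gene.

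Trib3, Chac1 and Sesn2 act downstream of ATF4 and CHOP. Chac1 (chr2:119351229-119354381, plus strand), a γ-glutamylcyclotransferase that degrades glutathione, had 5.20, 3.51 and 5.98 CPM in FOXA2f/f and 1.95, 2.81 and 1.25 CPM in FOXA2H-KO. The groups did not overlap, and the gap was between FOXA2f/f replicate 2 and FOXA2H-KO replicate 2. These libraries differ in depth and had 64 and 70 counts, so the gap rests on the scaling. In FPKM the margin was 1.86 against 1.75. The log2 fold change was −1.29 (SE 0.36), and it was between −1.61 and −1.04 when any 1 library was left out. On the log2(FPKM + 1) scale it was −0.77. FOXA2f/f replicate 4, the lowest of its group in Asns, was the highest in Chac1.

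Trib3 (chr2:152337422-152344032, minus strand), a pseudokinase that feeds back on ATF4 and CHOP, had 11.6, 7.46 and 5.59 CPM in FOXA2f/f and 4.49, 7.10 and 4.72 CPM in FOXA2H-KO. FOXA2f/f replicate 1 stood above the rest, and FOXA2H-KO replicate 2 lay within the FOXA2f/f range. The log2 fold change was −0.60 (SE 0.32) and was −0.24 without FOXA2f/f replicate 1. Sesn2 (chr4:132492032-132510501, minus strand), a leucine sensor that restrains mTORC1, had 11.5, 13.8 and 17.8 CPM in FOXA2f/f and 13.4, 15.2 and 18.2 CPM in FOXA2H-KO. Its groups overlapped almost fully, with a log2 fold change of 0.12 (SE 0.21).

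Phgdh, Psat1 and Shmt2 make serine and turn it into glycine and one-carbon units. Phgdh (chr3:98313170-98339990, minus strand), the first enzyme of serine synthesis, had 9.58, 2.63 and 3.24 CPM in FOXA2f/f and 2.91, 3.37 and 3.70 CPM in FOXA2H-KO. Only FOXA2f/f replicate 1 was high, and the other 5 libraries lay together. The log2 fold change of −0.63 (SE 0.48) became 0.19 without that library.

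Psat1 (chr19:15904678-15947337, minus strand), the aminotransferase of the next step, had 19.8, 20.01 and 7.12 CPM in FOXA2f/f and 9.97, 13.6 and 14.0 CPM in FOXA2H-KO. Here FOXA2f/f replicates 1 and 2 were the highest and FOXA2f/f replicate 4 the lowest of all 6 libraries, with a log2 fold change of −0.32 (SE 0.37). It was −0.67 without FOXA2f/f replicate 4 and −0.088 without FOXA2f/f replicate 1. Shmt2 (chr10:127517123-127522444, minus strand), the mitochondrial serine hydroxymethyltransferase, had 151, 189 and 143 CPM in FOXA2f/f and 111, 139 and 117 CPM in FOXA2H-KO. The groups did not overlap, though FOXA2f/f replicate 4 and FOXA2H-KO replicate 2 were close. Its log2 fold change was −0.40 (SE 0.16), and with scaling by library size alone or in FPKM its groups overlapped.

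Fgf21 (chr7:45613886-45615490, minus strand), a hormone that the liver secretes in fasting and amino acid shortage, was the least abundant by counts and the most variable. FOXA2f/f replicates 1, 2 and 4 had 80, 38 and 4 counts, or 3.44, 2.08 and 0.127 CPM. FOXA2H-KO replicates 1, 2 and 4 had 20, 6 and 41 counts, or 0.736, 0.241 and 1.90 CPM. Both groups held a high and a low library and they overlapped widely, with a coefficient of variation of 88.4% in FOXA2f/f and 88.8% in FOXA2H-KO. The log2 fold change was −0.97 with an SE of 1.03, and ranged from −1.90 without FOXA2H-KO replicate 4 to −0.13 without FOXA2f/f replicate 1.

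**Figure D1:**
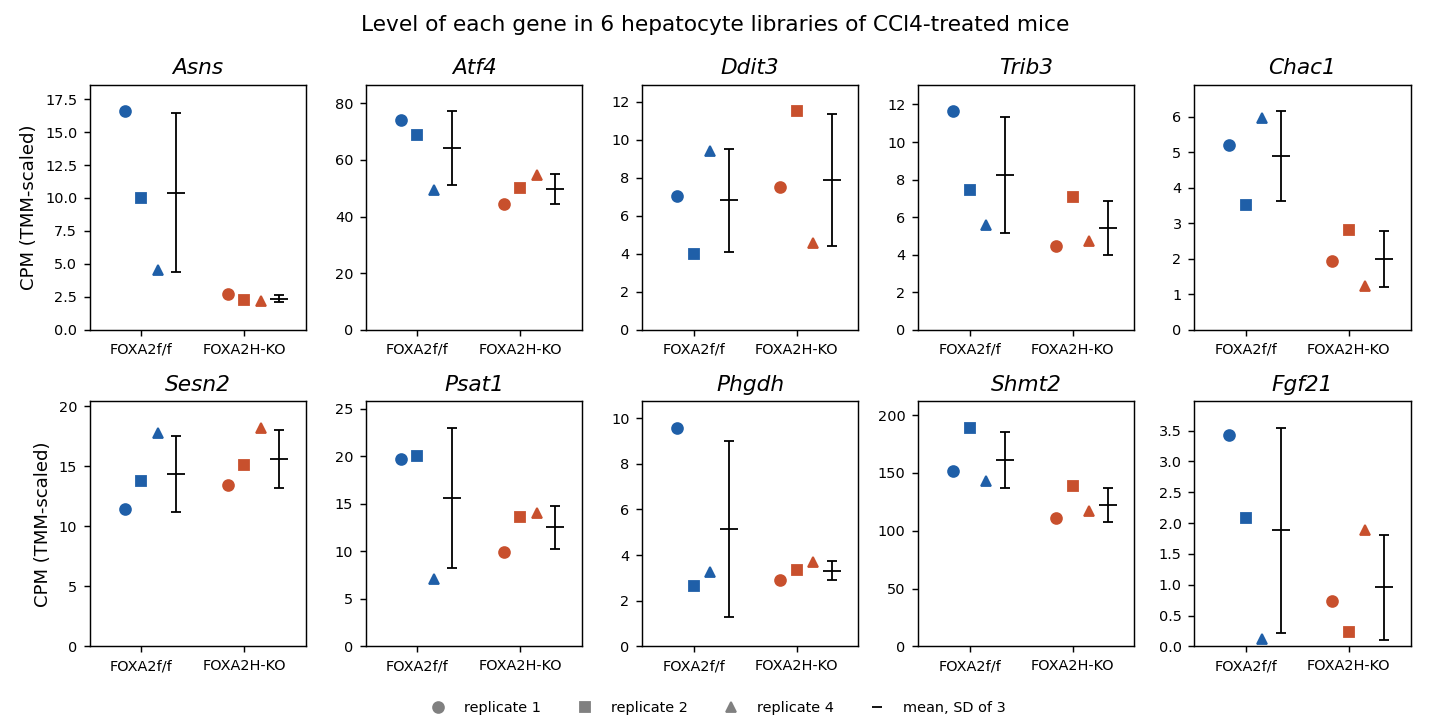
Each panel shows 1 gene, with TMM-scaled CPM on a linear vertical axis from 0, the 3 FOXA2f/f libraries in blue and the 3 FOXA2H-KO libraries in orange (marker shape: replicate number), and the mean with SD in black. Asns, Chac1 and Shmt2 show no overlap between groups, FOXA2f/f replicate 1 alone is high in Phgdh, and Fgf21 spreads from 0.127 to 3.44 CPM.

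Across the 10 genes, 8 had a log2 fold change below 0, against 52.2% of all genes tested, with a median of −0.50 against −0.01. By library size alone the split was again 8 and 2, with a median of −0.36, where 4657 of all 14417 genes tested were below 0. The median was −0.18 without FOXA2f/f replicate 1 and −0.74 without FOXA2f/f replicate 4. The groups did not overlap in 3 of 10 genes, all lower in FOXA2H-KO, against a background of 5.96% in that direction. At an unadjusted p under 0.05 the quasi-likelihood test gave the same 3 genes, with a background of 3.18% lower (5.17% in either direction). With adjustment over all genes it called 0 of 10 genes. DESeq2 and the edgeR exact test each called 1, Asns, where they called 0.482% and 0.444% of all genes in either direction and 0.309% and 0.277% as lower. As the genes were chosen with these values in view, nothing is read from these shares.

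The highest library differed from gene to gene. FOXA2f/f replicate 1 was the highest of all 6 libraries in Asns, Atf4, Trib3, Phgdh and Fgf21, and FOXA2f/f replicate 2 in Psat1 and Shmt2. Ddit3 peaked in FOXA2H-KO replicate 2, Sesn2 in FOXA2H-KO replicate 4 and Chac1 in FOXA2f/f replicate 4. Without FOXA2f/f replicate 4, the groups did not overlap in 7 genes, with Atf4, Trib3, Psat1 and Fgf21 added to the 3 above. A group with fewer libraries is parted from the other more easily. The share over all genes is not given for this setting, so nothing is read from the 7. FOXA2f/f replicate 4 also had the highest macrophage, stellate cell and endothelial marker sums of all 6 and, at 129257 CPM, the lowest hepatocyte marker sum of its group. The part of those cells in the values of the 10 genes was not tested.

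**Figure D2:**
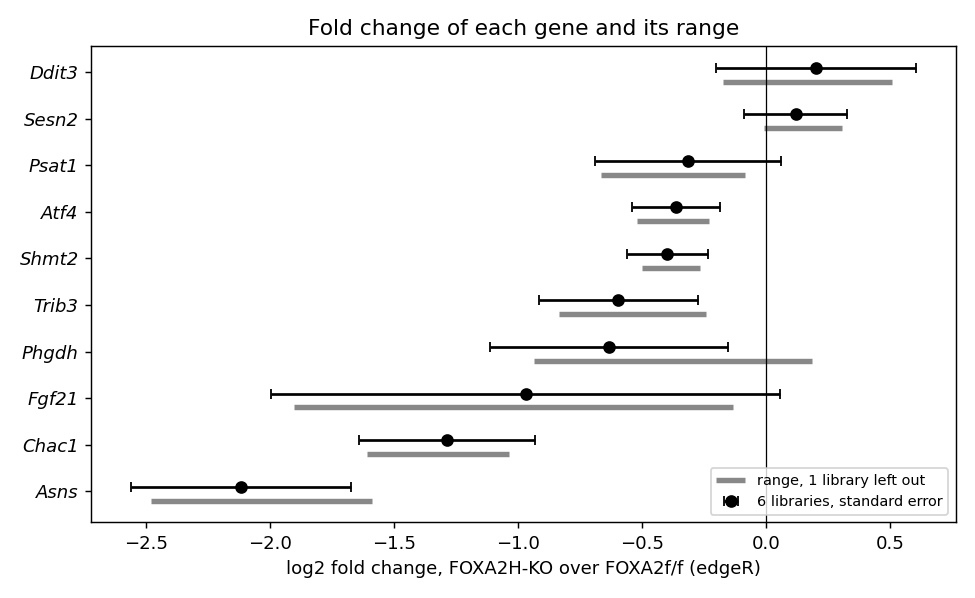
The horizontal axis gives the log2 fold change of FOXA2H-KO over FOXA2f/f for each gene, with black points and bars for the value and SE over 6 libraries and grey bars for the range when each library is left out in turn. The grey bars of Asns (−2.12) and Chac1 (−1.29) lie wholly below −1, while those of Ddit3, Sesn2 and Phgdh cross 0.

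Levels can be compared between genes only per length, as FPKM, in which the count is divided by the gene length and the library total. Shmt2, with 66.6 ± 6.12 FPKM in FOXA2f/f, and Atf4, with 35.2 ± 3.66, were far above the rest. In both groups neither overlapped the gene next to it in order. The other 8 genes had mean levels of 1.70 to 4.05 FPKM in FOXA2f/f, and each overlapped its neighbour in the order. Asns was the sixth in FOXA2f/f, at 2.57 ± 1.35 FPKM, and the last in FOXA2H-KO, at 0.666 ± 0.130 FPKM. The lengths the authors divided by are not all those of GENCODE M21: for Asns the values imply 3751 bases and the annotation gives 2735. The order among the low genes therefore depends on the gene models.

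Beyond these 10 genes, 153 genes in 9 lists around the pathway were examined, of which 149 were tested. Of these, 106 (71.1%, against 52.2% of all genes tested) had log2 fold changes below 0 and 43 above. Their median was −0.14, against −0.01 for all genes tested. The quasi-likelihood test called 0 of them. At an unadjusted p under 0.05, 12 were lower and 2 higher, with a background of 3.18% lower and 1.98% higher, and the groups did not overlap in 19 lower and 2 higher genes, with a background of 5.96% and 4.54%.

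Other targets of ATF4 and CHOP did not lean one way, with 14 of 26 genes below 0 and 12 above and a median of −0.02. Of all genes tested, 52.2% were below 0. Vldlr, the VLDL receptor, had the highest value of the list. Its libraries had 9.41, 10.97 and 11.3 CPM in FOXA2f/f and 43.2, 25.7 and 31.2 CPM in FOXA2H-KO, with no overlap and a log2 fold change of 1.66 (SE 0.21). Ddit4, an inhibitor of mTORC1, followed at 0.74 (SE 0.36), with overlapping groups. Cth, cystathionine γ-lyase, which makes cysteine, was at the low end, with 265, 400 and 247 CPM in FOXA2f/f and 125, 199 and 139 CPM in FOXA2H-KO. All FOXA2f/f libraries were above all FOXA2H-KO libraries, and the log2 fold change was −0.98 (SE 0.25). Mthfd2, a mitochondrial folate enzyme, had 6.33 ± 2.57 CPM in FOXA2f/f and 3.64 ± 0.371 in FOXA2H-KO, also with no overlap (−0.79, SE 0.31). Vldlr passed both thresholds with DESeq2 and with the edgeR exact test, which called 0.174% and 0.166% of all genes as higher.

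Of the amino acid transporters of the response, 7 of 10 tested were below 0, against 52.2% of all genes tested, with a median of −0.18. Slc1a4, which carries alanine, serine and cysteine, had 18.3 ± 5.39 and 10.1 ± 3.42 CPM with overlap (−0.85, SE 0.31). Slc7a5, which carries large neutral amino acids, had 4.14 ± 0.906 and 2.74 ± 0.593 CPM (−0.60, SE 0.28). Its groups were parted by 3.40 against 3.38 CPM and overlapped in FPKM. At the other end were Slc1a5, a glutamine carrier, at 0.39 (SE 0.32), with overlap, and Slc7a2, a carrier of cationic amino acids, at 0.26 (SE 0.18). Slc7a2 had 765, 818 and 786 CPM in FOXA2f/f and 849, 891 and 1097 CPM in FOXA2H-KO, higher in every FOXA2H-KO library and without overlap. Among eIF2α kinases, phosphatases and translation factors 11 of 16 were below 0, against 52.2% of all genes tested, with a median of −0.08. The ER kinase gene Eif2ak3 (PERK) was at −0.37 (SE 0.18) and the haem-regulated kinase gene Eif2ak1 (HRI) at 0.32 (SE 0.15), both with overlapping groups. Eif2s2, a subunit of eIF2, was at −0.20 (SE 0.18), and Impact, an inhibitor of the kinase GCN2, at 0.25 (SE 0.24).

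Cytosolic aminoacyl-tRNA synthetases charge tRNAs, and some of them are targets of ATF4. Of the 20 tested, 19 were below 0, against 52.2% of all genes tested, with a median of −0.23 and none called. The values were small, from −0.55 (SE 0.30) in Tars1 and −0.49 (SE 0.19) in Cars1 to −0.06 (SE 0.16) in Rars1 and 0.01 (SE 0.12) in Qars1. In 5 of the 20 genes the groups did not overlap, all lower in FOXA2H-KO, against 5.96% of all genes tested in that direction. FOXA2f/f replicate 2 was the highest of the 6 libraries in 17 of the 20 genes. In Tars1, FOXA2f/f replicates 1, 2 and 4 had 102, 176 and 73.4 CPM, and FOXA2H-KO replicates 72.9, 81.0 and 85.6 CPM. Replicate 2 was thus alone far above FOXA2H-KO, and replicate 4 lay within that group. Without FOXA2f/f replicate 2, 14 of the 20 were below 0 and the median was −0.11. With scaling by library size alone, which moved the median of all genes to 0.10, 13 were below 0. In that setting 4657 of all 14417 genes tested were below 0.

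Genes of ER chaperones and of the IRE1 and ATF6 arms, the other branches of the unfolded protein response, had the same library in front. All 19 had log2 fold changes below 0, against 52.2% of all genes tested, with a median of −0.35 and none called. In 4 of the 19 the groups did not overlap, all lower in FOXA2H-KO, against 5.96% of all genes tested in that direction. FOXA2f/f replicate 2 was the highest of the 6 libraries in 17 of the 19. Ern1, the gene of the sensor IRE1α, had 86.8, 134 and 86.1 CPM in FOXA2f/f and 64.9, 55.8 and 47.7 CPM in FOXA2H-KO. Its groups did not overlap, and the log2 fold change was −0.86 (SE 0.21). Dnajb9, an ER co-chaperone, had 95.9, 198 and 77.7 CPM in FOXA2f/f and 77.6, 86.9 and 66.2 CPM in FOXA2H-KO (−0.68, SE 0.33). Only replicate 2 was far above the FOXA2H-KO libraries in Dnajb9. The lowest differences were in Creld2 (−0.08, SE 0.23) and in Atf6 (−0.03, SE 0.13). Without FOXA2f/f replicate 2, 15 of the 19 were below 0 and the median was −0.06. With scaling by library size alone 16 were below 0, where 4657 of all 14417 genes tested were below 0. FOXA2f/f replicate 2 had the lowest macrophage, stellate cell and endothelial sums and the highest hepatocyte sum, 181774 CPM, of the 6 libraries. The part of cell composition in these lists was not tested.

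**Figure D3:**
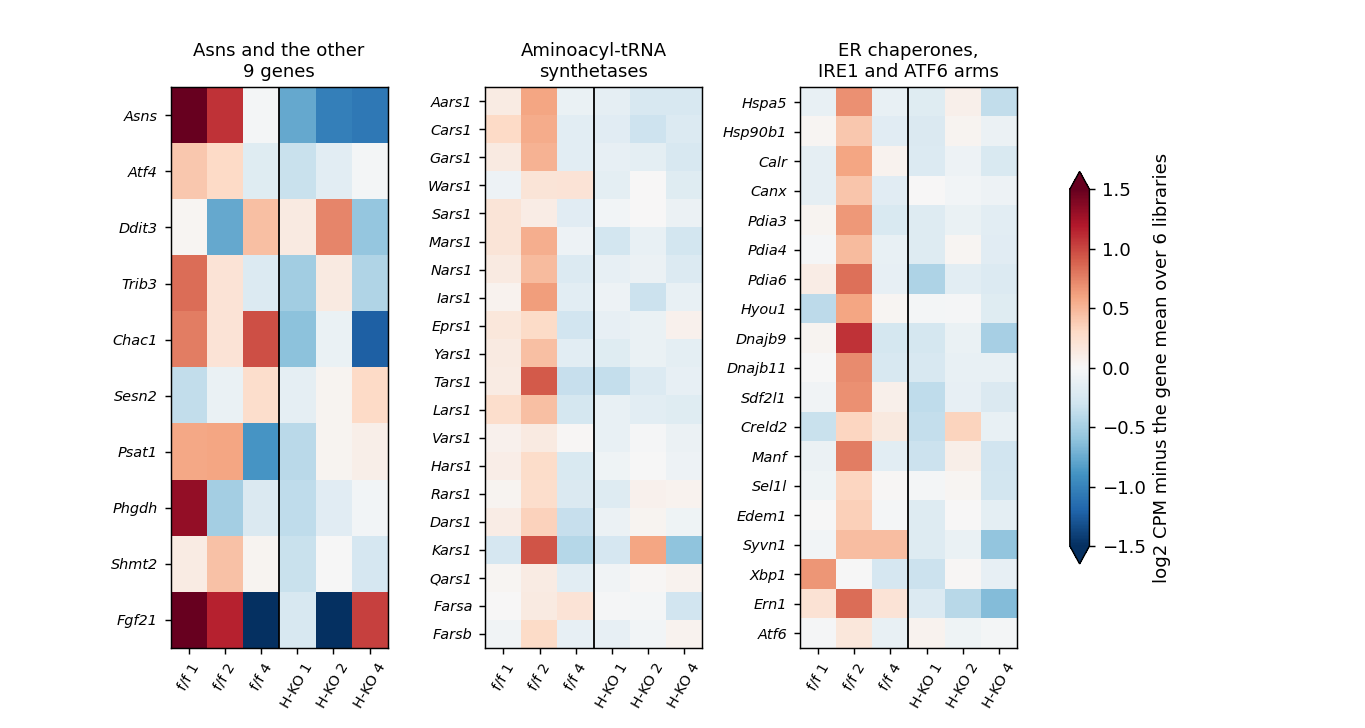
Each row is a gene and each column a library, with FOXA2f/f left and FOXA2H-KO right of the black line, and the colour gives log2 CPM minus the mean of the gene over 6 libraries (red above, blue below, saturated at 1.5). FOXA2f/f replicate 2 is the reddest column for synthetases (highest in 17 of 20) and ER genes (highest in 17 of 19), whereas Asns, Trib3 and Phgdh are reddest in FOXA2f/f replicate 1.

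Enzymes of serine, glycine, asparagine and one-carbon metabolism other than the 3 above had 23 of 30 genes below 0 and a median of −0.15, with no overlap in 6, all lower in FOXA2H-KO. With scaling by library size alone, 15 were below 0 and 15 above, where 4657 of all 14417 genes tested were below 0. Aspg, an asparaginase that breaks down the product of Asns, had the lowest value of the list. FOXA2f/f libraries had 192, 164 and 128 CPM and FOXA2H-KO libraries 71.2, 99.9 and 58.8 CPM, with no overlap and a log2 fold change of −1.07 (SE 0.24). The mRNA of Asns and that of Aspg were thus both lower in every FOXA2H-KO library than in any FOXA2f/f library. Asns was chosen because it was lower in these libraries and Aspg is the lowest of its list. No enzyme level was measured. Aspg also passed both thresholds with DESeq2 and with the edgeR exact test, which called 0.309% and 0.277% of all genes as lower. Agxt, which converts glyoxylate to glycine, had 145 ± 17.8 and 96.0 ± 17.7 CPM without overlap (−0.60, SE 0.18). In FPKM its groups overlapped, with 46.1 in FOXA2f/f replicate 2 and 47.8 in FOXA2H-KO replicate 2. Sds, serine dehydratase, was at 0.48 (SE 0.35) and Glul, glutamine synthetase, at 0.29 (SE 0.29), both with overlap.

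Of the receptors and regulators of FGF21, 6 of 10 were below 0, against 52.2% of all genes tested, with a median of −0.13. Mlxipl, the gene of the carbohydrate-responsive factor ChREBP, had 125, 239 and 189 CPM in FOXA2f/f and 122, 116 and 69.2 CPM in FOXA2H-KO (−0.85, SE 0.29). The groups did not overlap, but the lowest FOXA2f/f and the highest FOXA2H-KO library were close. In FPKM the groups overlapped, with 12.7 in FOXA2f/f replicate 1 and 15.4 in FOXA2H-KO replicate 1. Ppara, the fasting-responsive nuclear receptor gene, was at 0.36 (SE 0.20) and its coactivator Ppargc1a at 0.11 (SE 0.31), while the receptor Fgfr1 was at −0.35 (SE 0.22). Close paralogs of the 10 genes overlapped between groups in all 5 that were tested. Sesn1, at 0.51 (SE 0.29), and Sesn3, at −0.21 (SE 0.17), stood on opposite sides of Sesn2. Trib1, at 0.44 (SE 0.21), had the opposite sign to Trib3, and Chac2, at −0.23 (SE 0.21), the same sign as Chac1. The difference between paralogs was not tested.

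**Figure D4:**
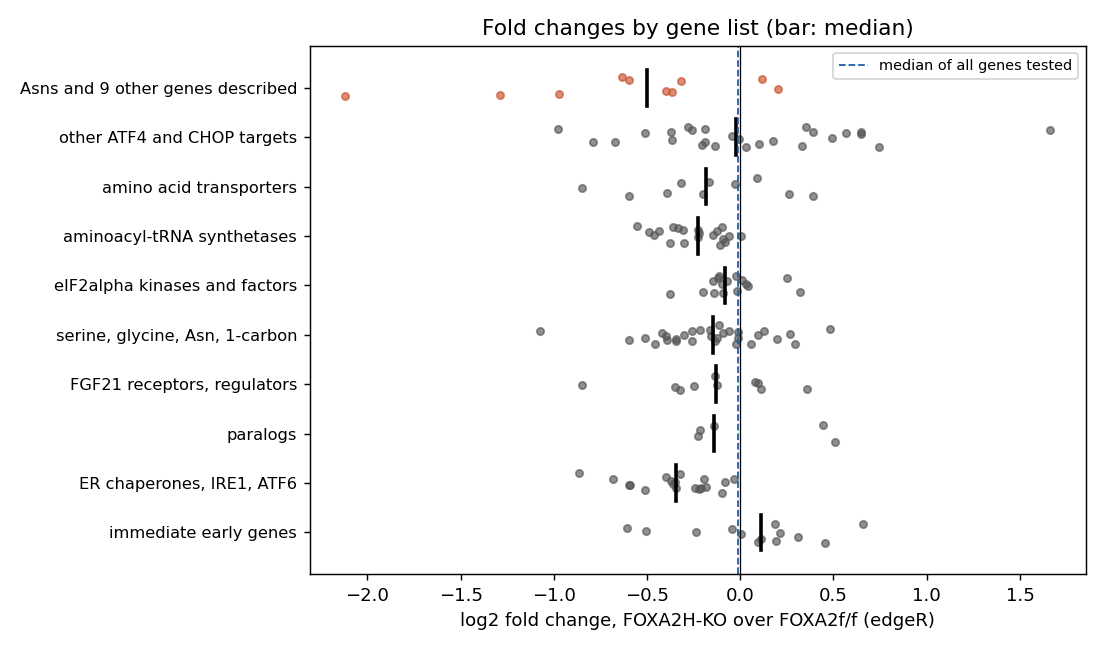
Each point is a gene, placed by its log2 fold change of FOXA2H-KO over FOXA2f/f, in rows for the 10 genes (orange) and 9 lists, with a black bar at the median of each row and a dashed line at the median of all genes tested (−0.01). The medians run from −0.50 in the 10 genes and −0.35 in ER genes to 0.11 in immediate early genes.

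The 13 immediate early genes are known to rise quickly when cells are isolated and handled. Of the 13, 4 were below 0 (52.2% of all genes tested) and 9 above, with a median of 0.11. Their summed level was 956, 360 and 1101 CPM in FOXA2f/f replicates 1, 2 and 4 and 811 to 911 CPM in FOXA2H-KO. Replicate 2 was lowest, and the FOXA2H-KO libraries lay between the FOXA2f/f libraries. Fos, at −0.50 (SE 0.65), and Fosb, at −0.61 (SE 0.76), were lowest, whereas Egr2, at 0.66 (SE 0.79), and Klf6, at 0.45 (SE 0.18), were highest, all 4 with overlap. In Fos, FOXA2f/f replicate 2 had 7.95 CPM and the other libraries 25.3 to 69.5 CPM. The part of handling in the 10 genes was not tested.

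**Figure D5:**
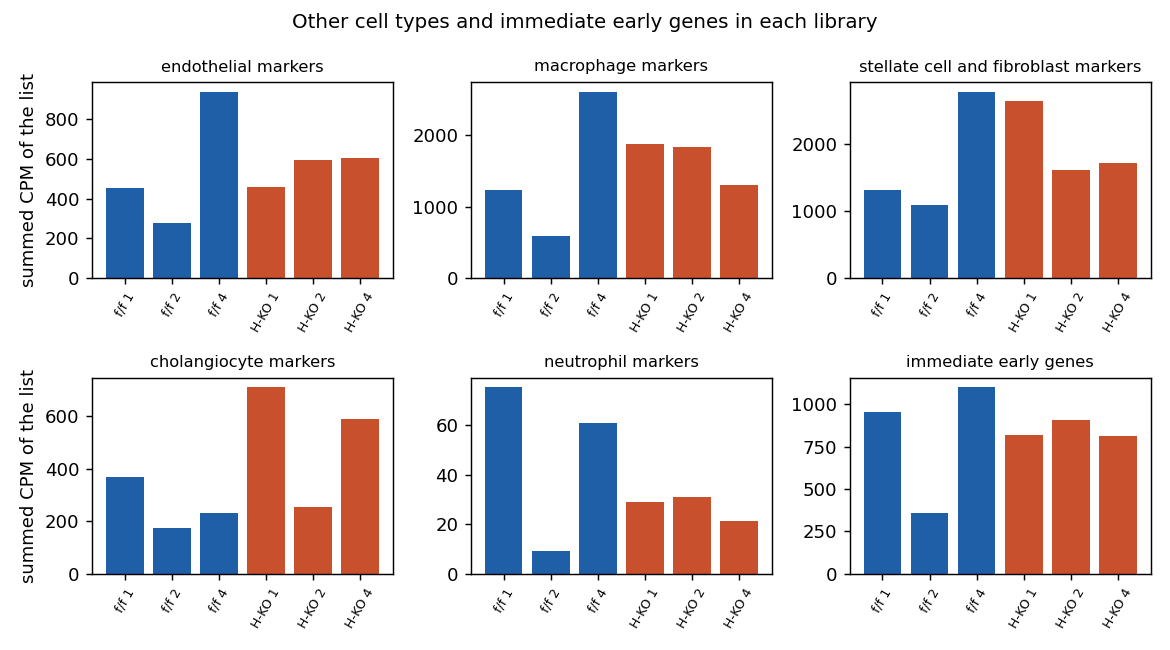
Bars from 0 give the summed CPM of 5 cell type marker lists and of the immediate early genes in each library, with FOXA2f/f in blue and FOXA2H-KO in orange. FOXA2f/f replicate 4 has the highest endothelial (939 CPM) and macrophage (2609 CPM) bars and FOXA2f/f replicate 2 the lowest immediate early bar (360 CPM).

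The genes with the pattern most like that of Asns were sought by Pearson correlation of log2 CPM over the 6 libraries, among 822 genes with a mean of at least 10 CPM and an SD of at least 0.5. The 5 highest were Cldn3 (0.989), a tight junction protein, Afp (0.986), the fetal liver protein α-fetoprotein, Gnat1 (0.967), a G protein subunit, Klhdc7a (0.945) and Aacs (0.935), which activates acetoacetate for lipid synthesis. After the group means were subtracted, r was 0.963, 0.945, 0.858, 0.874 and 0.814 in the same order. Afp had 68.3, 44.6 and 20.7 CPM in FOXA2f/f replicates 1, 2 and 4 and 10.8, 13.6 and 11.6 CPM in FOXA2H-KO. Thus in Afp, as in Asns, the FOXA2f/f libraries stood in the order 1, 2, 4 and the FOXA2H-KO libraries lay together below them. These values describe 6 libraries that differ in depth and cell mix, and the genes were picked as the highest of many. The part of depth and cell mix in the correlations was not tested.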

How the data were processed

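RNA was from hepatocytes obtained by perfusion with collagenase and low-speed spins, 1 library per sample and 3 per group, made with a TruSeq RNA kit. Nothing in the labels says more about the separateness of replicates than their numbers. The p-values therefore set the group difference against the spread between these libraries, which need not be the spread between mice. For 34745 Ensembl genes the authors deposited raw fragment counts and, beside them, FPKM values, which follow from the count, the library total and 1 length per gene. The submitters' processing notes name CASAVA 1.8, TopHat2 2.1.0, HTSeq, edgeR and mm10, and the annotation is not given in the sources used here. A table of the series that holds the authors' own comparison (fold changes and p-values) was not used.

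The count analysis used edgeR 4.0.16 under R 4.3.3, with TMM, filterByExpr and the quasi-likelihood test, and tested 14417 genes with a biological coefficient of variation of 25.3%. A call was a Benjamini-Hochberg adjusted p under 0.05 over all genes and a fold change of at least 2. The SE is the log2 fold change divided by the root of F. No overlap means that all libraries of one group were above all of the other. The alternatives were DESeq2 1.42.0, library size alone, upper quartile scaling, the edgeR exact test, no filter beyond 1 count, at least 10 counts in every library, limma 3.58.1 on log2(FPKM + 1) where mean FPKM reached 1, a replicate block, no fold threshold, and each library left out. All scripts with tests were tested on simulated data.

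The 10 genes and the lists were chosen with earlier results of these data known. Named are the 10 genes, Foxa2, and in each list the called genes and the 2 genes at either extreme of log2 fold change whose mean CPM reached 1, and the 5 genes most like Asns. Lists were written from general knowledge. Positions are from GENCODE M21 (GRCm38) and promoter windows from RefSeq.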

Additional observations from a re-analysis of the deposited data

How the results depend on the processing

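The 1 gene called, Foxa2, sets a low base for counts. DESeq2 called 75 genes, the edgeR exact test 64, the fit without a filter 2, and library size alone and limma on FPKM 0. The fit with the replicate number as a replicate block called 0. Over the genes tested, deviations of same-numbered libraries from their group means had correlations of −0.07, 0.03 and −0.23 for numbers 1, 2 and 4. The labels do not say whether equal numbers pair samples, and correlations for so few pairs of libraries cannot settle it. Leaving out 1 library gave 0 to 6 calls. Of the 10 genes, DESeq2 and the exact test called 1 (main 0). Of the list genes they called 2 each, and the fit without a filter 1 (main 0). The number of list genes at an unadjusted p under 0.05, 14, ranged from 7 without FOXA2H-KO replicate 4 to 41 without FOXA2f/f replicate 4. The 3 genes without overlap ranged from 3 to 7 over the libraries left out, the 7 again without FOXA2f/f replicate 4. Groups with fewer libraries are parted more easily, and no share over all genes is given for these settings.

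Of 139 alternative values for the 10 genes, 136 moved by less than 1 SD between replicates. The others were Asns (−1.03) and Chac1 (−0.77) by FPKM and Phgdh (0.19) without FOXA2f/f replicate 1. Among the list genes, small log2 fold changes changed sign as follows. By library size alone and by FPKM, Rars1 was 0.068 and 0.062, Creld2 0.022 and 0.034, and Atf6 0.098 and 0.087, and by FPKM Fos was 0.019. With 1 library left out, Rars1 ranged from −0.18 without FOXA2f/f replicate 4 to 0.063 without FOXA2f/f replicate 2, Qars1 from −0.068 to 0.070 and Atf6 from −0.095 to 0.051 in the same 2 settings. Creld2 ranged from −0.30 without FOXA2H-KO replicate 2 to 0.061 without FOXA2H-KO replicate 1, and Ppargc1a from −0.22 without FOXA2H-KO replicate 4 to 0.37 without FOXA2f/f replicate 4. The cause was not tested. Counts were lowest in Fgf21, at 4 in 1 library.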
